A study of Homo sapiens with 6 samples.

Results

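The clustered histone genes are the genes named HIST1H, HIST2H, HIST3H or HIST4H, which lie in groups on a few chromosomes and encode the linker histone H1 and the nucleosome core histones H2A, H2B, H3 and H4. Every feature of the deposited count table whose gene name begins with 1 of these 4 prefixes was taken as a member, which gave 8 of 2778 features. They are the H2B genes HIST1H2BK, HIST1H2BJ and HIST1H2BC, the H2A genes HIST1H2AC and HIST2H2AC, the H2A pseudogene HIST1H2APS4, the H3 gene HIST1H3G and the H4 gene HIST1H4D. GENCODE release 29 annotates 90 genes under these names, of which 71 are protein-coding, and 7 of the 71 are in the table. By type these were 3 of 18 protein-coding H2B genes, 2 of 17 H2A genes, 1 of 15 H3 genes, 1 of 15 H4 genes and none of 6 H1 genes. The others were not analysed here.

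The libraries came from A375, an established human melanoma cell line. 3 libraries were made from wildtype cells (WT) and 3 from cells overexpressing CYGB (CYGB-OE), the gene of the haem protein cytoglobin. All cells were untreated, and no label names the vector, the promoter, a clone or an empty-vector control. The series asks which transcripts differ between the 2 groups.

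Nucleosomes need new histones each time DNA is copied, and the clustered genes deliver most of them in S phase. Their main transcripts carry no poly(A) tail and end in a short stem-loop that is bound by the stem-loop binding protein SLBP. Some of the genes also give longer transcripts with a poly(A) tail, and HIST1H2BK, HIST1H2BJ, HIST1H2BC and HIST1H2AC are on the list used here of 10 genes known to do so. The libraries were made from RNA captured on oligo-dT beads, which hold poly(A) tails, so transcripts that end in the stem-loop are poorly sampled. How much histone RNA without a tail entered the libraries was not measured, and the counts below describe the captured RNA.

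The region between HIST1H2BC and HIST1H2AC is shown first because the genes are transcribed away from each other from its 2 ends and both were higher in CYGB-OE. It covers the 218 bases between the 2 gene models at chr6:26123927-26124144 (GRCh38), is read on the minus strand towards HIST1H2BC, and comes from RefSeq's GRCh38.p14 promoter table, as do the next 3. The upstream regions of HIST1H2BJ (chr6:27132796-27133041, minus strand) and HIST1H2BK (chr6:27146859-27147105, minus strand) follow because the 2 genes lie close together and are alike in their motifs. That of HIST2H2AC (chr1:149886668-149886917, plus strand) belongs to the 1 member outside chromosome 6. Capitals mark TATAAA (the TATA box), CCAAT and ATTTGCAT (the octamer element known from H2B promoters) on either strand, and all 4 stretches stop where an annotated exon begins.
HIST1H2BC: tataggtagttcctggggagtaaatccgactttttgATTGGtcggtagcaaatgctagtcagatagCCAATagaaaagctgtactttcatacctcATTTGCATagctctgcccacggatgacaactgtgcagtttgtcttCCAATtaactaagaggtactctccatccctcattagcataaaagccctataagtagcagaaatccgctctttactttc
HIST1H2BJ: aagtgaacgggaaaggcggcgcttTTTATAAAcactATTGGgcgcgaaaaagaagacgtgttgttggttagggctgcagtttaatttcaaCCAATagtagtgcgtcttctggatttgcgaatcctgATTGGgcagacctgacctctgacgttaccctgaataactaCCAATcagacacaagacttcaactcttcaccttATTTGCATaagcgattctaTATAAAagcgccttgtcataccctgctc
HIST1H2BK: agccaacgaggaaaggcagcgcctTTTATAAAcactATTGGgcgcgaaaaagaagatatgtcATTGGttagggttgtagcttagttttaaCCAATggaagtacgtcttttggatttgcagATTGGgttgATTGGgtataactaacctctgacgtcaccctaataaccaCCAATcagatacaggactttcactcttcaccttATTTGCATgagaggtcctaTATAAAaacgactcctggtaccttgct
HIST2H2AC: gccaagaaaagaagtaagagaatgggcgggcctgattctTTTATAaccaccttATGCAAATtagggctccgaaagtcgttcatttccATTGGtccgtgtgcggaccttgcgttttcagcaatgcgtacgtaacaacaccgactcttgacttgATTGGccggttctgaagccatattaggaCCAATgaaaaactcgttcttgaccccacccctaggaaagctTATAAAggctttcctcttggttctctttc

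Distances of motifs are counted to the RefSeq gene starts. For HIST1H2BJ, HIST1H2BK, HIST2H2AC and HIST1H4D these lie upstream of the GENCODE starts, which are used for gene positions elsewhere. The octamer ATTTGCAT occurred 1 time in each of the 4 stretches. It began 47 bases before the start of HIST1H2BJ and 46 before that of HIST1H2BK, 123 before that of HIST1H2BC, and lay on the opposite strand at 197 before that of HIST2H2AC. CCAAT occurred 3, 4, 6 and 3 times in the stretches of HIST1H2BC, HIST1H2BJ, HIST1H2BK and HIST2H2AC. TATAAA began 28, 27 and 29 bases before the starts of HIST1H2BJ, HIST1H2BK and HIST2H2AC and was not found between HIST1H2BC and HIST1H2AC. Near the far end of the HIST1H2BJ and HIST1H2BK stretches TATAAA lies on both strands in overlap. The GENCODE start of HIST1H2BJ lies 1008.824 kb from that of HIST1H2BC, and the GENCODE start of another histone gene, HIST1H2AG, 1009.116 kb. Which gene a motif serves was not tested. Over the 250 bases before the start of 27305 RefSeq genes, ATTTGCAT was found in 1.66%, CCAAT in 33.0% and TATAAA in 11.1%, and among 66 clustered histone genes in 39.4%, 84.8% and 66.7%. These are matches of letters, and no binding was measured. The upstream region of HIST1H3G lies within the gene's own GENCODE exon and is not shown. That of HIST1H4D, 250 bases, was also searched and is not shown. It held TATAAA 1 time, 29 bases before the start, and neither CCAAT nor ATTTGCAT.

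The stem-loop letters, GGC, any base, CTTTT, any base, AG, any base and GCC, were searched on the sense strand of the GENCODE transcripts, because they tell which gene models contain the usual 3′ end and read past it. They were found in 34 of 90 clustered histone genes (37.8%) and in 6 of 58586 other genes (0.0102%). Of the 8 members, 3 had a match, as follows.
HIST1H2AC: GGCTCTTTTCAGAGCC
HIST1H2BC: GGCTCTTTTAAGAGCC
HIST1H3G: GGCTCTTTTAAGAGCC

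The longest HIST1H2AC transcript, of 1668 bases in 2 exons, is annotated as nonsense-mediated decay. In it 1128 bases followed the stem-loop, and the polyadenylation signal AATAAA lay in the last 50 bases. A protein-coding HIST1H2AC transcript of 1654 bases also had the stem-loop and the signal, and another of 1462 bases had neither. HIST1H2BC had a 1-exon transcript of 571 bases with 116 bases after the stem-loop, and a 2-exon transcript of 659 bases without one. Neither ended near an AATAAA. The HIST1H3G model, 1 exon of 2411 bases, went on for 1518 bases after its stem-loop and also ended near an AATAAA. HIST1H2BJ had a 2-exon transcript of 950 bases that ended near an AATAAA and 2 others that did not. The models of HIST1H2BK, HIST2H2AC and HIST1H4D, of 381, 390 and 312 bases, hold coding sequence only. If the authors counted on similar models, reads in the untranslated ends of these 3 genes were not counted.

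CYGB itself had 33 to 47 counts in the WT libraries and 20740 to 26267 in the CYGB-OE libraries. The table is a selection: after scaling, the log2 ratio between the group means was never between -0.995 and 0.995, so each gene is here because it differed about 2-fold between these same libraries. A call below is therefore not independent evidence of a difference. The columns sum to between 1533260 and 2801576 counts over the selection alone, and library depth is unknown. CYGB-OE replicate 1 was the odd library. Its median absolute log2 difference was 0.46 from replicate 2 and 0.47 from replicate 3, whereas these 2 differed by 0.21 and pairs of WT libraries by 0.17 to 0.18. Of 11 melanocyte markers 5 were in the table, with summed normalized counts of 6825 to 7466 in WT and 2832 to 3317 in CYGB-OE. Of 6 fibroblast, 4 keratinocyte, 4 leukocyte and 3 endothelial markers, COL1A2, KRT14, LYZ and none were in it, at 0 to 3.16, 13.8 to 20.5 and 43.6 to 55.3 in WT and at 36.3 to 173, 51.8 to 68.1 and 223 to 341 in CYGB-OE. Their part in the histone results was not tested.

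All 8 clustered histone genes had higher values in every CYGB-OE library than in any WT library. 6 had enough counts to test, and each was called higher in CYGB-OE (edgeR quasi-likelihood test, adjusted over all 2465 features tested, threshold 0.05). HIST1H2BK, HIST1H2BJ and HIST1H2AC reached the count minimum of 10 in all 3 WT libraries. HIST1H2BC, HIST1H3G and HIST2H2AC reached it in 3 libraries only with those of CYGB-OE, the group where they are high, so these 3 had to differ in order to be tested and the count of 6 supports nothing. Of all features tested, 28.3% were higher by this test and 71.5% lower. The groups were apart and CYGB-OE was the higher in 28.3% of all 2778 features. The 6 members' median log2 fold change was 1.43, against -1.30 over all features tested and 1.40 (quartiles 1.15 and 1.88) over the features called higher. The 6 genes ran from 1.13, below the lower of these quartiles, to 2.06, above the upper. HIST1H2BJ, HIST1H2AC and HIST1H2BK, which reached the minimum in all WT libraries, had 1.13, 1.17 and 1.20. HIST1H2BC, HIST1H3G and HIST2H2AC, which entered through CYGB-OE, had 1.66, 1.84 and 2.06. The median of the 6 depends on the latter 3, so it supports nothing either. Summed over the 8 genes, the 3 WT libraries had 394, 438 and 359 normalized counts and the 3 CYGB-OE libraries 715, 1053 and 1070, in replicate order. HIST1H2BK and HIST1H2AC together gave 81.0% to 91.7% of these counts in each library, so a sum describes mainly these 2 genes. In cultured cells, more RNA per cell and more cells in S phase cannot be told apart.

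**Figure D1:**
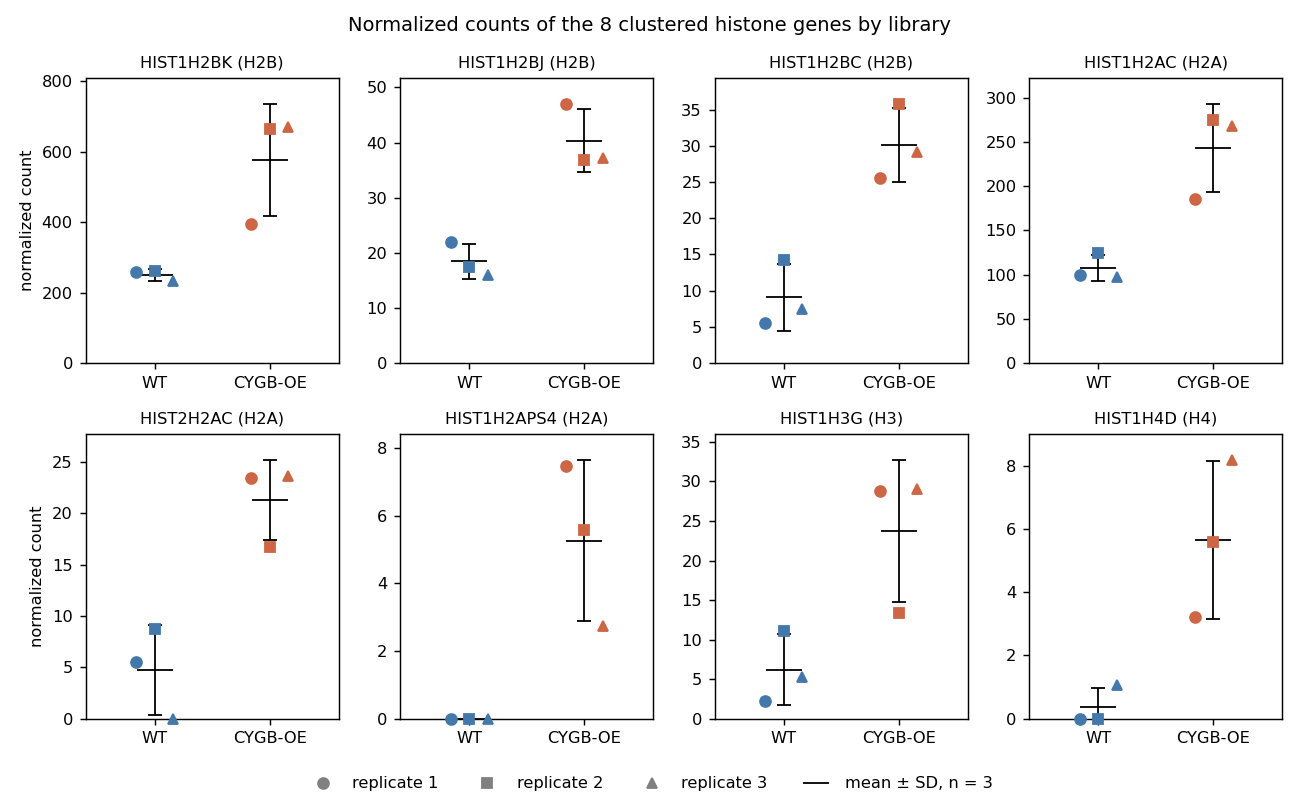
Normalized counts (vertical axes, starting at 0, a scale for each gene) of the 8 clustered histone genes in 3 WT and 3 CYGB-OE libraries, where symbols mark the replicate and bars the mean ± SD. The groups do not overlap for any gene, and CYGB-OE replicate 1 is the lowest of its group for HIST1H2BK, HIST1H2AC, HIST1H2BC and HIST1H4D and the highest for HIST1H2BJ and HIST1H2APS4.

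HIST1H2BK (ENSG00000197903, now H2BC12; chromosome 6, 27146418 to 27146798, minus strand, 1 exon) encodes an H2B protein and was the most abundant member. Raw counts, given here and below in the order of replicates 1 to 3, were 235, 332 and 218 for WT and 369, 595 and 739 for CYGB-OE, or 258, 262 and 232 against 394, 664 and 672 after scaling. CYGB-OE replicate 1 lay well below the other 2 of its group and still above WT. The mean rose from 251 ± 16.7 to 577 ± 158 normalized counts (SD, n = 3 libraries each), which is 1.20 on the log2 scale (SE 0.21; edgeR adjusted p = 0.00057). Of the 50-base windows of its model, 74.1% also occur in transcripts of other genes, 61.4% in those of H2BFS. Reads from such copies could be lost or be assigned to either gene, and how multi-mapped reads were handled is not stated in the labels or the file.

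HIST1H2BJ (ENSG00000124635, now H2BC11; chromosome 6, 27125897 to 27132750, minus strand) encodes another H2B protein. The WT libraries held 20, 22 and 15 counts and the CYGB-OE libraries 44, 33 and 41. After scaling, the values were 22.0, 17.4 and 15.9 in WT and 46.9, 36.9 and 37.3 in CYGB-OE, so here CYGB-OE replicate 1 was the highest library. The log2 fold change was 1.13 (SE 0.27; edgeR adjusted p = 0.00335), and 4.65% of the windows were shared with other genes.

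HIST1H2BC (ENSG00000180596, now H2BC4; chromosome 6, 26114873 to 26123926, minus strand) is the third H2B gene. Its counts were low, at 5, 18 and 7 for WT and 24, 32 and 32 for CYGB-OE. Scaled, they were 5.50, 14.2 and 7.44 against 25.6, 35.7 and 29.1, with WT replicate 2 well above the other 2 WT libraries. The log2 fold change was 1.66 (SE 0.37; edgeR adjusted p = 0.00239) for a gene tested only because of its CYGB-OE counts, and 6.63% of the windows were shared.

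HIST1H2AC (ENSG00000180573, now H2AC6; chromosome 6, 26124145 to 26139116, plus strand) encodes an H2A protein and had the second highest level. WT libraries held 91, 157 and 92 counts and CYGB-OE libraries 174, 246 and 295. The scaled values of 100, 124 and 97.8 in WT and 186, 275 and 268 in CYGB-OE again put CYGB-OE replicate 1 lowest in its group. The gene rose from 107 ± 14.6 to 243 ± 49.6 normalized counts (SD, n = 3 each), with a log2 fold change and SE of 1.17 and 0.21 (edgeR adjusted p = 0.000604). Its model is nearly free of shared sequence, with 0.421% of windows found elsewhere.

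HIST2H2AC (ENSG00000184260, now H2AC20; chromosome 1, 149886975 to 149887364, plus strand, 1 exon) is an H2A gene of the chromosome 1 cluster and the only member outside chromosome 6. WT gave 5, 11 and 0 counts of it and CYGB-OE 22, 15 and 26. Normalized counts were 5.50, 8.69 and 0 in WT and 23.5, 16.8 and 23.6 in CYGB-OE. Its log2 fold change, 2.06 (SE 0.60; edgeR adjusted p = 0.00833), had the widest error of the 6, and the gene entered the test through CYGB-OE alone. The value was 2.92 without WT replicate 2 and 1.54 without WT replicate 3, the library at 0. Of its windows, 30.5% also occur in HIST2H2AA3.

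HIST1H3G (ENSG00000273983, now H3C8; chromosome 6, 26269405 to 26271815, minus strand, 1 exon) encodes an H3 protein. WT gave 2, 14 and 5 counts and CYGB-OE 27, 12 and 32. After scaling they were 2.20, 11.1 and 5.31 against 28.8, 13.4 and 29.1, so the highest WT library came close to the lowest CYGB-OE library. The log2 fold change was 1.84 (SE 0.52; edgeR adjusted p = 0.00694), or 2.62 without WT replicate 2, for a gene that likewise entered the test through CYGB-OE. None of its 50-base windows was found in another gene's transcripts.

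The other 2 members had too few counts for the test. HIST1H2APS4 (ENSG00000218690; chromosome 6, 26272021 to 26272701, minus strand) is a transcribed H2A pseudogene that ends 205 bases upstream of the start of HIST1H3G. Each WT library gave 0 counts, and CYGB-OE gave 7, 5 and 3. With 3 counts over the WT group as the limit that 0 allows, the ratio was 5.31 (3.15 without WT replicate 2). The CYGB-OE counts were taken as exact here, so these values are not lower limits of the ratio. HIST1H4D (ENSG00000277157, now H4C4; chromosome 6, 26188765 to 26189076, minus strand) encodes the H4 protein. WT had 0, 0 and 1 counts and CYGB-OE had 3, 5 and 9, a ratio of 18.1 with an exact 95% interval of 2.83 to 755. Without WT replicate 2 the ratio was 10.7 (1.68 to 448). Without WT replicate 3, which left 0 counts, the ratio with 3 WT counts was 4.20, again with the CYGB-OE counts taken as exact. The exact intervals cover counting error only, and the ratios with 3 WT counts leave out that of CYGB-OE. Reads without molecular identifiers are not independent molecules.

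The 4 tested genes on the polyadenylated list had log2 fold changes of 1.13 to 1.66 and the 2 tested genes outside it 1.84 and 2.06. The difference between these sets was not tested, and the errors of the second set, 0.52 and 0.60, are larger than the gap. Both genes of the second set entered the test through CYGB-OE alone. When p-values were adjusted over all 58780 annotated genes, which counts the genes outside the table as not significant, HIST1H2BK and HIST1H2AC kept their calls (edgeR adjusted p = 0.0136 and 0.0144). HIST1H2BC, HIST1H2BJ, HIST1H3G and HIST2H2AC lost theirs (edgeR adjusted p = 0.0569, 0.0798, 0.166 and 0.199). Under this reading 19.1% of the features tested were higher.

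**Figure D2:**
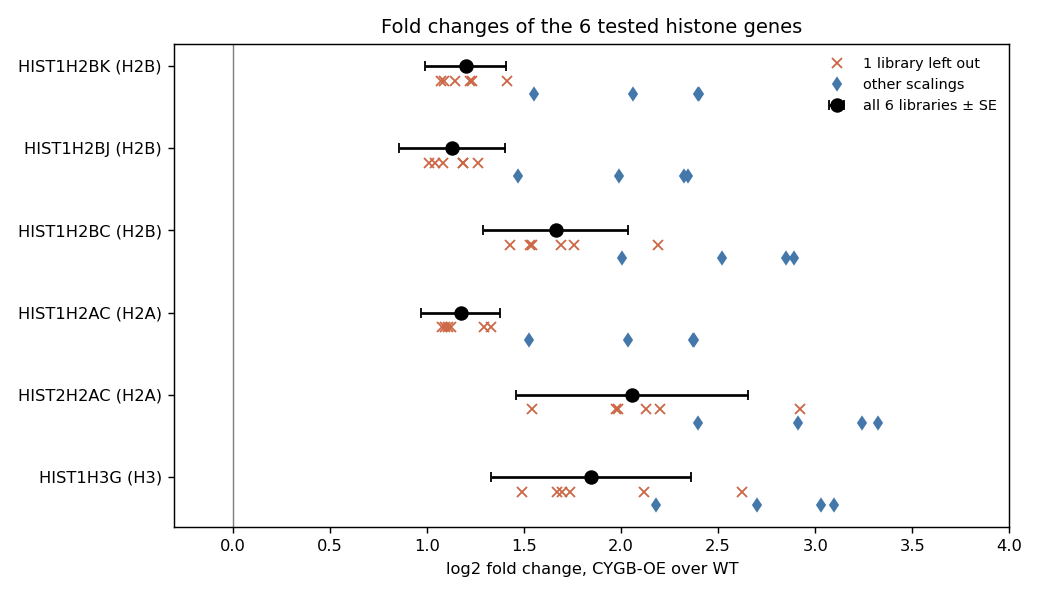
Log2 fold changes (horizontal axis, CYGB-OE over WT) of the 6 tested histone genes, with all 6 libraries (black, ± SE), with 1 library left out (crosses) and with 4 other scalings (diamonds, DESeq2 with its own test). Every mark lies above 0, and the marks of HIST1H3G and HIST2H2AC spread most when a library is left out.

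Ratios of 2 genes within a library do not depend on how libraries are scaled. Per 100% of HIST1H2AC counts, HIST1H2BC counts were 5.49%, 11.5% and 7.61% in WT and 13.8%, 13.0% and 10.8% in CYGB-OE. The log2 ratio was -3.68 ± 0.53 in WT and -3.00 ± 0.18 in CYGB-OE (SD, n = 3 each), a difference of 0.67 with overlapping groups (exact two-sided permutation p = 0.2, adjusted 0.3 over the 2 ratios tested). Against HIST1H2BJ, the HIST1H2BC counts were 25%, 81.8% and 46.7% in WT and 54.5%, 97.0% and 78.0% in CYGB-OE, a log2 difference of 0.70 with overlapping groups (exact two-sided permutation p = 0.3, adjusted 0.3). With 3 against 3 libraries the smallest p is 0.10, so neither test could pass 0.05. Without WT replicate 1, the library with the lowest share in both ratios, the differences were 0.42 and 0.27, and without WT replicate 2 they were 0.95 and 1.12.

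Levels of different genes were compared as normalized counts per kb of GENCODE exon. In CYGB-OE the order was HIST1H2BK at 1513 ± 416, HIST1H2AC at 146 ± 29.8, HIST2H2AC at 54.6 ± 10.1, HIST1H2BJ at 42.5 ± 6.01, HIST1H2BC at 36.1 ± 6.17, HIST1H4D at 18.1 ± 7.98, HIST1H3G at 9.86 ± 3.72 and HIST1H2APS4 at 7.72 ± 3.50 (SD, n = 3). HIST2H2AC, HIST1H2BJ and HIST1H2BC overlapped their neighbours in that order, as did HIST1H4D, HIST1H3G and HIST1H2APS4. In WT the levels of HIST1H2BK and HIST1H2AC were 658 ± 43.8 and 64.3 ± 8.74, followed by HIST1H2BJ at 19.4 ± 3.33, HIST2H2AC at 12.1 ± 11.3, HIST1H2BC at 10.9 ± 5.49, HIST1H3G at 2.57 ± 1.87, HIST1H4D at 1.14 ± 1.97 and HIST1H2APS4 at 0. HIST1H2BJ, HIST2H2AC and HIST1H2BC overlapped there too, and so did the last 3. The lengths are those of this annotation, so the high value of HIST1H2BK rests on a coding-only model.

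The 7 members on chromosome 6 spanned 1032 kb, from HIST1H2BC to HIST1H2BK, in 2 stretches parted by 853 kb. GENCODE places 29 clustered histone genes and 32 other genes in the span. None of the 32 other genes was in the table, so neighbours of a different kind could not be compared. HIST1H2BJ and HIST1H2BK are 13667 bases apart. No annotated gene overlaps any of the 8 members on either strand.

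**Figure D3:**
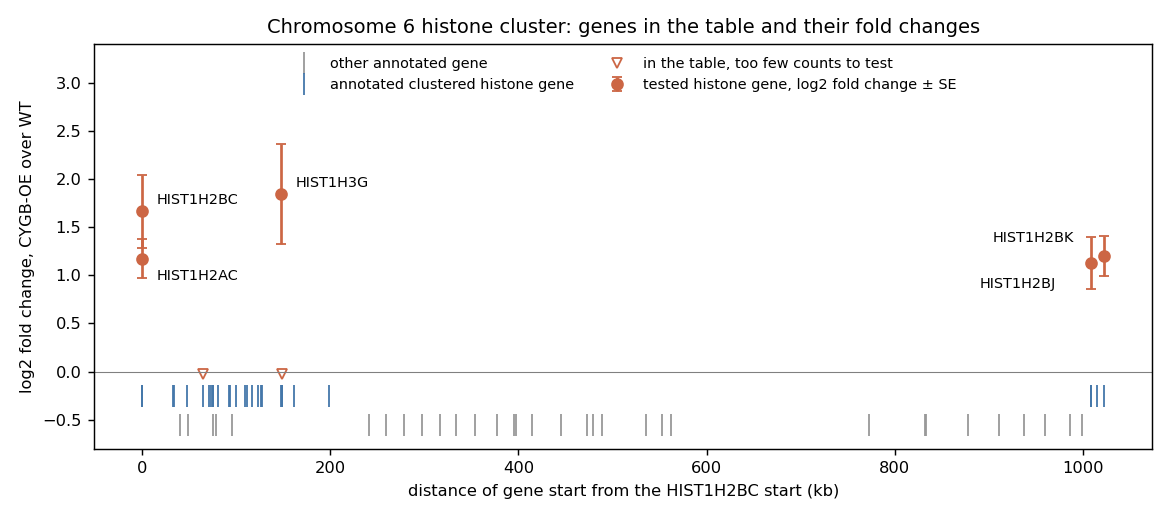
Genes in the chromosome 6 span by distance of their start from that of HIST1H2BC (horizontal axis, kb), with log2 fold changes ± SE (vertical axis, CYGB-OE over WT) of the 5 tested members. Ticks below 0 mark the annotated histone and other genes, and open triangles, drawn without a value, mark HIST1H4D and HIST1H2APS4; the members sit at both ends of the span.

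Of the genes that make, process and carry histones, few were in the table and those few were higher, where 28.3% of all features tested were called higher, 71.5% lower and 6 features neither. None of 13 replication-independent histone genes was in it. Of 17 genes of the histone locus body and of 3′ end processing, CCNE2 alone was tested and rose, with normalized counts of 310, 343 and 305 in WT and 1180, 726 and 729 in CYGB-OE (log2 fold change 1.46, SE 0.20; edgeR adjusted p = 0.000154). CCNE2 encodes cyclin E2, a partner of the kinase CDK2 at S phase entry. CYGB-OE replicate 1 was the highest library for CCNE2. Among the histone genes it was the lowest of its group for HIST1H2BK, HIST1H2AC, HIST1H2BC and HIST1H4D. It was the highest for HIST1H2BJ and HIST1H2APS4.

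Of 32 histone chaperone and chromatin assembly genes, 2 were tested and both rose. ASF1A, a chaperone that hands H3 and H4 to the assembly factors, had 690, 749 and 689 normalized counts in WT and 1382, 1465 and 1560 in CYGB-OE (log2 fold change 1.05, SE 0.10; edgeR adjusted p = 2.7e-05). NAP1L2, of the nucleosome assembly protein family, went from 24.5 ± 6.97 to 62.8 ± 7.66 (SD, n = 3 each; log2 fold change 1.34, edgeR adjusted p = 0.00173). Of 38 genes of G1/S and replication, 7 were tested and all 7 rose. Their median log2 fold change was 1.18, against -1.30 over all features tested. Over the features called higher the median was 1.40 and the lower quartile 1.15. CLSPN, the checkpoint adaptor claspin, had 839, 914 and 977 normalized counts in WT and 2787, 1851 and 2040 in CYGB-OE. CYGB-OE replicate 1 was the highest library for all 7 G1/S and replication genes tested. UHRF1, PCNA, MCM10 and RRM2 had log2 fold changes of 1.37, 1.24, 1.18 and 1.06.

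The features whose centred log2 profile over the 6 libraries lay closest to the mean of the 6 tested histone genes, by root-mean-square difference of log2(normalized count + 1), were AL359921.2 at 0.11, ADAMTS4 at 0.14 and ACTRT3 at 0.14. ADAMTS4, an aggrecanase, had 66.0, 102 and 68.0 normalized counts in WT and 218, 238 and 282 in CYGB-OE. The histone genes themselves lay 0.28 (HIST1H2BC) to 0.91 (HIST2H2AC) from their own mean. The 3 features were picked as the closest to that mean, so their smaller distances follow from the choice.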

How the data were processed

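Per the file header, the authors deposited raw counts per feature, with 1 column for each of 6 libraries. Per the submitters' processing notes, Trimmomatic 0.36, STAR 2.5.2b, featureCounts and Subread 1.5.2 were used with GRCh38; not given in the sources used here are the annotation, the strand setting, and how 2778 features were selected. Of 2615 Ensembl identifiers, 2611 were found in GENCODE 29; 163 features are unnamed loci.

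TMM assumes mostly unchanged features, but this table holds changed ones. WT and CYGB-OE libraries were therefore scaled by TMM separately. The 2 groups were then aligned by placing 0 at the centre of the gap in the log2 ratios of their means. Normalized counts are the counts over these factors. edgeR 4.0.16 (R 4.3.3; filterByExpr, minimum count 10; robust quasi-likelihood F test, two-sided) tested 2465 features, with Benjamini-Hochberg adjustment and a threshold of 0.05. DESeq2 1.42.0, limma-voom (limma 3.58.1), other scalings, no filter, a replicate block and leaving out each library were tried. Scripts were tested on simulated data. SEs derive from the F statistic. Separate cultures are not named in the labels, so the p-values reflect the spread among these libraries, which may be technical.

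Members and lists were chosen with earlier results of these data known. All members are named, with up to 5 genes of each list by largest change and the 3 features closest in profile. Shared windows were exact 50-base matches in GENCODE transcripts on either strand. Protein sequences were not used here.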

Additional observations from a re-analysis of the deposited data

How the results depend on the processing

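Of the 2465 features tested, 697 were higher and 1762 lower. Lower calls numbered 465 with TMM over the table, 887 with upper-quartile factors and 503 with DESeq2, with 745, 736 and 813 higher. These scalings raise all log2 fold changes by 1.20, 0.86 and 1.21, and total counts by 0.35, so none turned a histone gene lower. Adjusted over all annotated genes, 2 of the 6 histone genes were called. The log2 fold changes then not called were those of HIST1H2BC (1.66), HIST1H2BJ (1.13), HIST1H3G (1.84) and HIST2H2AC (2.06). In DESeq2 and without a filter all 8 were called higher, where 813 and 809 of the table's 2778 features were higher and 503 and 1959 lower. The 2 genes added, HIST1H2APS4 and HIST1H4D, had 0 and 1 counts over all WT libraries and come from the same selection. Their calls therefore add no evidence. Leaving out 1 library gave 694 to 740 higher and 1777 to 1846 lower, and 6 histone genes each time, with log2 fold changes of 1.08 to 1.41 for HIST1H2BK, 1.08 to 1.33 for HIST1H2AC, 1.43 to 2.19 for HIST1H2BC, 1.01 to 1.26 for HIST1H2BJ, 1.49 to 2.62 for HIST1H3G and 1.54 to 2.92 for HIST2H2AC. With the replicate number as a block, 696 were higher and 1763 lower, with the 6 histone genes called. The numbers did not pair the libraries: same-number correlations were -0.053 to 0.0087, and 1 of 6 libraries correlated best with its own number. Counts of at most 32 per library limit HIST1H2BC, HIST1H3G and HIST2H2AC.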
